A study of Mus musculus with 6 samples.

Results

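The genes described here encode collagens that build networks in basement membranes and beneath the endothelium of vessels, or that sit at the basement membrane border. All are called network collagens below for short. They are the 10 genes of collagens IV, VIII, XV and XVIII, namely Col4a1 to Col4a6, Col8a1, Col8a2, Col15a1 and Col18a1. They were picked as families of collagens, by gene symbol and with earlier results of these data known, and make up 10 of the 55335 genes in the count table. RNA was taken from aorta of wild-type mice of the strain labelled c57b6l, at 6 weeks (young, 3 libraries) and at 6 months of age (aged, 3 libraries). No treatment is named for either group. The study's methods call all mice male and state that fat around the vessel was dissected away. A length of vessel was collected from each mouse, and the methods do not name the segment. The labels number the libraries of a group as repeats and name no pooling. They do not say whether each library came from 1 mouse, or whether the mice were litter mates. Reads were counted per gene, and counts are given here as CPM, in which library totals are made equal after correction by the TMM method of edgeR. FPKM, which also divides by gene length, is used where the levels of members are compared with each other. Values per summed cell type marker are ratios of CPM and are not corrected for gene length.

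Collagen IV is the main collagen of basement membranes, the thin sheets on which endothelial cells rest and which surround each smooth muscle cell of the aortic media. Its chains fold into helical trimers inside the cell, and the trimers join end to end into a mesh outside it. The chains of Col4a1 and Col4a2 form the trimer found in almost every tissue. Those of Col4a3, Col4a4 and Col4a5 form the mesh of the kidney filter, and those of Col4a5 and Col4a6 are combined in the basement membranes of smooth muscle. Collagen VIII is a short-chain collagen made by vascular cells that assembles into hexagonal lattices. Collagens XV and XVIII carry glycosaminoglycan chains and sit at the border between basement membrane and stroma, and the end fragment of collagen XVIII is endostatin, an inhibitor of vessel sprouting.

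The 6 collagen IV genes lie in 3 pairs, each read outwards from a shared start region (GRCm38 coordinates, GENCODE M21 annotation). Col4a1 covers chr8:11198423-11312826 on the minus strand and Col4a2 covers chr8:11312805-11449287 on the plus strand, so their first exons overlap by 22 bases. Col4a3 (chr1:82586921-82722059, plus strand) and Col4a4 (chr1:82448423-82586849, minus strand) leave 71 bases between their starts. Col4a5 (chrX:141475385-141689234, plus strand) and Col4a6 (chrX:141165403-141474076, minus strand) leave 1308 bases. The other members stand alone, with Col8a1 at chr16:57624258-57754737, Col8a2 at chr4:126286793-126314330, Col15a1 at chr4:47208161-47313167 and Col18a1 at chr10:77052178-77166548. The sequences of the start regions are shown because the levels of both genes of a pair are set against each other in the results. They come from RefSeq (GRCm38.p6) and are cut to bases outside annotated exons, except for the 22 bases that belong to the first exons of both Col4a1 and Col4a2. Capitals mark a CCAAT box in the sequence of Col4a5 and a GC box (GGGCGG, here on the other strand as CCGCCC) in that of Col4a6. The 22 bases also hold the letters of a GC box, left in lower case.
Col4a1 and Col4a2 (chr8:11312805-11312826, plus strand): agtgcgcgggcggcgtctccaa
Col4a3 and Col4a4 (chr1:82586850-82586920, minus strand): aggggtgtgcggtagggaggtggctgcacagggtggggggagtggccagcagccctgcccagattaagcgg
Col4a5 (chrX:141475169-141475384, plus strand): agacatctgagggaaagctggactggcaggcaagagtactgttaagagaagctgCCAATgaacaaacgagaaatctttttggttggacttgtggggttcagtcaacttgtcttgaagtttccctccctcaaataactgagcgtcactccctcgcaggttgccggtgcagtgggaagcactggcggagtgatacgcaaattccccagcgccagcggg
Col4a6 (chrX:141474077-141474326, minus strand): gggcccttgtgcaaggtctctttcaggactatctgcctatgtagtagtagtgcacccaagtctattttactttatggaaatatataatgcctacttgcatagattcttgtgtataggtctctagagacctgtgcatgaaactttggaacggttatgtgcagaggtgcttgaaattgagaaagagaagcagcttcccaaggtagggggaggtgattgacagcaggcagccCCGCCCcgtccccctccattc
RefSeq windows of 300 bases around the start (250 before it and 50 after it) were found for 9 of the 10 genes. The CCAAT box, the GC box (GGGCGG), the TATA box (TATAAA), the E box of the Myc type (CACGTG) and the AP-1 site (TGACTCA) were searched in them on both strands. The windows of Col4a1 and Col4a2, of which 74.0% and 73.7% of the bases were G or C, each held CCAAT once, and GGGCGG was found once in the former and 3 times in the latter. That of Col4a4 held none of the 5 motifs and neither did that of Col15a1. Those of Col4a5 and Col4a6 held GGGCGG once each, and that of Col4a5 also held CCAAT once. GGGCGG was found 4 times in each of the windows of Col8a1 and Col8a2, with 1 overlapping pair in Col8a2. Of the 2 windows of Col18a1, 1 held CCAAT once and GGGCGG 3 times. CCAAT occurred in 37.4% and GGGCGG in 35.7% of all 32851 windows, and the TATA box, the E box and the AP-1 site, found in none of the members, in 13.6%, 7.15% and 5.2%. These matches describe letters and do not show that a factor binds.

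Several facts on the libraries bear on all values. The counts summed to between 31049632 and 45832185 per library, and mitochondrial genes took 14.9% to 21.2% of them in young and 23.1% to 30.4% in aged aorta. FPKM divides by all reads, so this share enters FPKM, which was not recomputed without mitochondrial genes. With these genes removed edgeR again called 0 genes, but that fit uses counts scaled by TMM and does not bear on FPKM. Young replicate 1 went against the male label, with Xist, the RNA of the inactive X chromosome, at 305.6 CPM against 0.204 to 0.636 in the other libraries, and the Y-linked Ddx3y at 53 counts against 1488 to 2117. The same library held the most cardiac muscle transcripts, with 5 markers summing to 299 CPM against 80.0 to 91.9 elsewhere. The tissue label was borne out by smooth muscle markers, whose 8 genes summed to between 28902 and 41684 CPM in every library. In whole tissue, fewer cells of a type and less RNA per cell cannot be told apart.

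The 10 genes fell into an abundant and a scarce set with a wide gap between them. On the FPKM scale, Col18a1 was the most abundant at a mean over the 6 libraries that ranked 141 among the 16612 genes tested. Col4a1 and Col4a2 ranked 313 and 331, Col15a1 ranked 474, and Col4a5 and Col4a6 ranked 743 and 888. The other members were far lower, with Col4a4 at rank 7240, Col4a3 at 9187, Col8a1 at 11127 and Col8a2 at 12472. Between Col4a6 and Col4a4, the neighbours on either side of this gap, the mean log2 FPKM difference was 3.44 ± 0.79 (SD, n = 6 libraries). The order was the same in all 6 libraries except between 2 pairs of neighbours. Col4a1 stood above Col4a2 in 5 of 6 libraries, with a mean log2 difference of 0.10 ± 0.11 (SD, n = 6), so these 2 levels did not differ beyond their spread. Col4a5 stood above Col4a6 in 5 of 6 libraries as well, by 0.23 ± 0.18 (SD, n = 6), and the mean differences of the other neighbours were also larger than their SD. Over the 44 collagen genes of mouse in the table, the 10 members made up 38.0% ± 1.32 (SD, n = 3) of summed FPKM in the young libraries and 35.9% ± 6.21 (SD, n = 3) in the aged ones (exact permutation test, two-sided, p = 0.7, where 0.1 is the smallest p that 3 against 3 libraries allow).

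**Figure D1:**
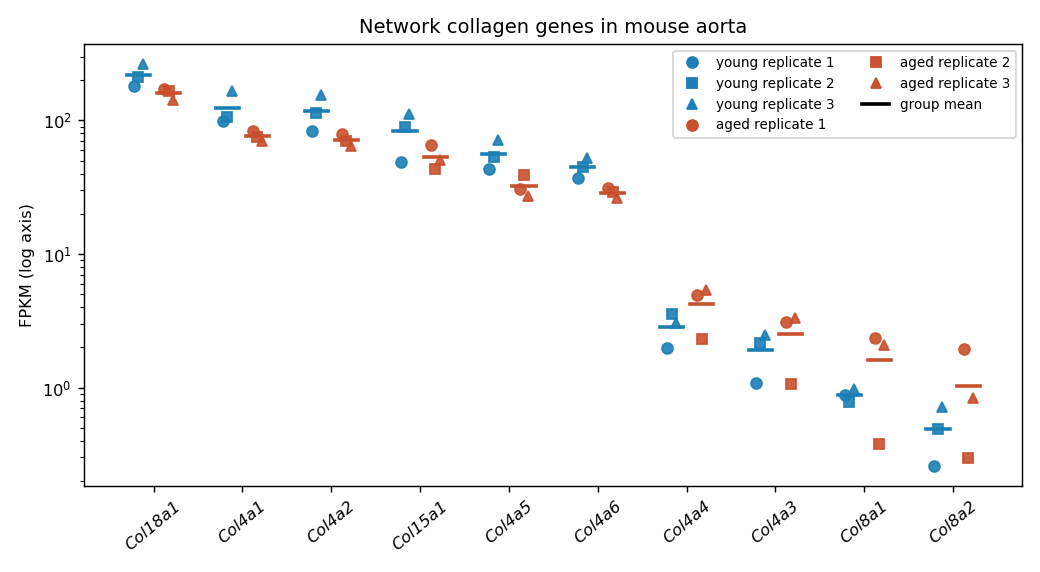
FPKM of the 10 network collagen genes on a log axis, ordered by mean level, with 1 point per library (blue young, red aged, shape by replicate) and a line at each group mean. Col18a1 lies between 143 and 264 FPKM at the top, Col4a6 is the lowest of the abundant genes, and Col4a4, Col4a3, Col8a1 and Col8a2 lie below 6 FPKM.

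Aged aorta held less RNA of the abundant network collagens and more of the scarce ones in the means, but no member passed the test. The quasi-likelihood test of edgeR, adjusted over all genes by the Benjamini-Hochberg method, called 0 of the 10 genes and 0 of all 16612 genes tested (0%) at an adjusted p below 0.05. All 10 genes passed the filter on low counts, and the lowest adjusted p among them was 0.449. The log2 fold change of aged over young was negative for 6 members and positive for 4, with a median of -0.33 beside 0.02 over all genes, of which 47.9% were negative. In all, 2 members, Col4a5 and Col4a6, had an unadjusted p below 0.05 and were lower in aged aorta, where 4.82% of all genes were lower and 5.56% higher at that limit. The CPM of the groups did not overlap for Col4a1 and Col4a6, which makes 2 members lower in aged aorta beside 8.78% of all genes, and for 0 members higher beside 7.74%. On FPKM, 5 members were lower without overlap, beside 20.9% of all genes, and 0 were higher, beside 3.24%. DESeq2 called 338 genes (2.03%) and 0 members. In that fit 4 members had an unadjusted p below 0.05, beside 1976 of 16612 genes. Of these, Col4a5 and Col4a6 were lower and Col4a4 and Col8a2 higher in aged aorta. Nothing shows that the 6 libraries came from separate mice, litters or cages, so the p-values measure the spread between these libraries.

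**Figure D2:**
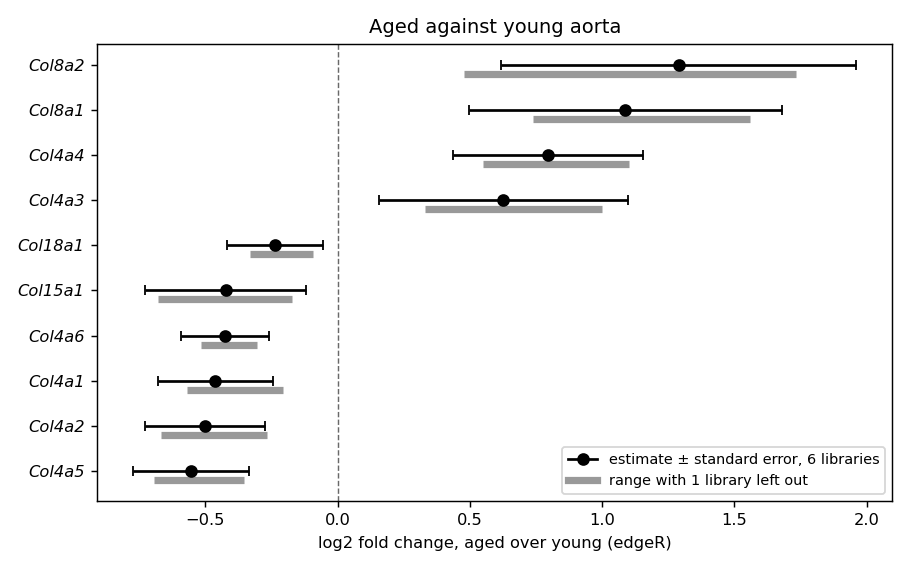
Log2 fold change of aged over young aorta for each member, as the edgeR estimate with its standard error (points and thin bars, 3 against 3 libraries) and the range of estimates with 1 library left out (thick grey bars). The 6 abundant genes lie at or below -0.24 and the 4 scarce genes at or above 0.63, and no grey bar crosses 0.

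Col4a1 and Col4a2, the chains of the common collagen IV trimer, were lower in aged aorta in the means. Col4a1 (ENSMUSG00000031502) had 777, 798 and 1227 CPM in young replicates 1, 2 and 3 and 731, 656 and 646 CPM in aged replicates 1, 2 and 3. All 3 aged libraries lay below all 3 young ones, although young replicates 1 and 2 were nearer to the aged libraries than to young replicate 3. The means were 934 ± 254 CPM (SD, n = 3) and 678 ± 46.5 CPM (SD, n = 3), a 1.38-fold difference, and the fitted log2 fold change was -0.46 (SE 0.22, edgeR adjusted p = 0.517). Without young replicate 3 it was -0.21. Col4a2 (ENSMUSG00000031503) had 582, 762 and 1015 CPM in the young and 608, 537 and 522 CPM in the aged libraries. Here young replicate 1 fell among the aged libraries, so the groups overlapped on this scale. The means of 786 ± 218 CPM (SD, n = 3) and 556 ± 45.7 CPM (SD, n = 3) gave a log2 fold change of -0.50 (SE 0.23, edgeR adjusted p = 0.504), or -0.27 without young replicate 3 and -0.67 without young replicate 1. On the FPKM scale neither gene overlapped between groups, with Col4a2 between 83.9 and 154 FPKM in young and between 64.0 and 78.7 FPKM in aged aorta. The young spread of both genes was several times the aged spread.

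Col4a5 and Col4a6, the X-linked chains that join in smooth muscle basement membranes, had the smallest unadjusted p-values of the members. Col4a5 (ENSMUSG00000031274) had 302, 363 and 474 CPM in young and 242, 306 and 227 CPM in aged replicates 1, 2 and 3. Aged replicate 2 lay just above young replicate 1, and the other libraries kept to their groups. Its means were 379 ± 87.3 CPM (SD, n = 3) and 258 ± 42.4 CPM (SD, n = 3), with a log2 fold change of -0.55 (SE 0.22, edgeR adjusted p = 0.453). Col4a6 (ENSMUSG00000031273) had 312, 366 and 419 CPM in the young and 289.5, 269 and 259 CPM in the aged libraries. The groups did not overlap and the aged libraries lay close together. The means of 366 ± 53.8 CPM (SD, n = 3) and 272 ± 15.7 CPM (SD, n = 3) gave a log2 fold change of -0.42 (SE 0.17, edgeR adjusted p = 0.449). Both genes lie on the X chromosome. Young replicate 1, the library with Xist, had the lowest young value of each, as it had for 9 of the 10 members. Without that library the log2 fold changes of Col4a5 and Col4a6 were -0.69 and -0.52, both with an edgeR adjusted p of 0.397, and without young replicate 3 they were -0.35 and -0.31. Over all fits tried, the adjusted p of Col4a5 lay between 0.247 and 0.870 and that of Col4a6 between 0.237 and 0.868.

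Col18a1 and Col15a1, the collagens at the border of basement membrane and stroma, showed smaller or more scattered differences. Col18a1 (ENSMUSG00000001435), the source of endostatin, had 1336, 1517 and 1846 CPM in young and 1406, 1348 and 1234 CPM in aged replicates 1, 2 and 3. Young replicate 1 lay below the 2 highest aged libraries, so the groups overlapped. The means were 1566 ± 259 CPM (SD, n = 3) and 1329 ± 87.3 CPM (SD, n = 3), and the log2 fold change was -0.24 (SE 0.18, edgeR adjusted p = 0.663), the smallest in size of the 10. It was -0.09 without young replicate 3 and -0.33 without young replicate 1. Col15a1 (ENSMUSG00000028339) had 322, 579.5 and 703 CPM in the young and 481, 322 and 393 CPM in the aged libraries. Young replicate 1 was as low as aged replicate 2, while young replicates 2 and 3 were above every aged library. The means of 535 ± 194 CPM (SD, n = 3) and 399 ± 79.7 CPM (SD, n = 3) gave -0.42 (SE 0.31, edgeR adjusted p = 0.645), which became -0.68 without young replicate 1 and -0.17 without young replicate 3. Each of the 6 abundant genes was highest in young replicate 3, and 5 of them were lowest in aged replicate 3, with Col15a1 the exception.

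Smooth muscle markers moved with the abundant genes. All 8 of 8 markers (Myh11, Acta2, Cnn1, Tagln, Smtn, Myocd, Lmod1 and Mylk) had a negative log2 fold change, with a median of -0.36, 4 at an unadjusted p below 0.05 and 0 called. Their sum was 33329, 35517 and 41684 CPM in young and 34225, 30254 and 28902 CPM in aged replicates 1, 2 and 3, highest in young replicate 3 and lowest in aged replicate 3, and no marker was at 0 counts in any library. Expressed per summed smooth muscle marker, a comparison chosen after seeing the data, the log2 difference of aged minus young was -0.19 for Col4a1, -0.23 for Col4a2, -0.30 for Col4a5, -0.18 for Col4a6 and -0.13 for Col15a1. For Col18a1 it was 0.01, and its CPM stayed between 4.01% and 4.46% of the marker sum in the 6 libraries. Col4a1 and Col4a6 did not overlap between groups on this scale either (exact permutation test, two-sided, p = 0.1 each, the smallest possible, adjusted p = 0.333 over the 10 members). The share of all genes without overlap on this scale was not computed, so these 2 cannot be set against it. Pericyte markers, 4 genes, summed to 1404 to 1658 CPM in young and 1321 to 1598 CPM in aged aorta.

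Col4a3 and Col4a4, the chains best known from the kidney filter, were scarce and higher in aged aorta in the means. Col4a3 (ENSMUSG00000079465) had 11.4, 22.0 and 24.7 CPM in young and 36.3, 12.4 and 41.1 CPM in aged replicates 1, 2 and 3. Aged replicates 1 and 3 were above all young libraries and aged replicate 2 was among them. The means were 19.4 ± 7.02 CPM (SD, n = 3) and 29.9 ± 15.4 CPM (SD, n = 3), with a log2 fold change of 0.63 (SE 0.47, edgeR adjusted p = 0.659). Col4a4 (ENSMUSG00000067158) had 22.1, 38.2 and 32.4 CPM in the young and 61.8, 28.5 and 70.6 CPM in the aged libraries. The same 2 aged libraries were high and aged replicate 2 lay between young replicates 1 and 3. The means of 30.9 ± 8.17 CPM (SD, n = 3) and 53.6 ± 22.2 CPM (SD, n = 3) gave a log2 fold change of 0.80 (SE 0.36, edgeR adjusted p = 0.502), a 1.74-fold difference. Without aged replicate 2 the log2 fold changes of Col4a3 and Col4a4 were 1.00 and 1.10 (edgeR adjusted p = 0.276 and 0.140), and over all fits tried the adjusted p lay between 0.276 and 0.880 for Col4a3 and between 0.140 and 0.846 for Col4a4. Without aged replicate 3 the log2 fold changes of Col4a3 and Col4a4 were 0.33 and 0.55, and without young replicate 1 they were 0.36 and 0.61. Col4a3 shares 563 exon bases with C430014B12Rik on the other strand, a gene with 4 to 22 counts per library, and the strand of counting is not stated.

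Col8a1 and Col8a2, the chains of the subendothelial collagen VIII, had the lowest levels and, in the edgeR fit of all 6 libraries, the largest fold changes. With limma on log2(FPKM + 1) both were at 0.37, smaller in size than Col4a5 at -0.74. Col8a1 (ENSMUSG00000068196) had 7.33, 6.24 and 7.72 CPM in young and 21.6, 3.50 and 20.2 CPM in aged replicates 1, 2 and 3. The young libraries were close together, 2 aged libraries were well above them, and aged replicate 2 was the lowest of all 6. The means were 7.10 ± 0.769 CPM (SD, n = 3) and 15.1 ± 10.1 CPM (SD, n = 3), a 2.12-fold difference, with a log2 fold change of 1.09 (SE 0.59, edgeR adjusted p = 0.559). Without aged replicate 2 the log2 fold change of Col8a1 was 1.56 (SE 0.20) and it was the only member called (edgeR adjusted p = 0.0374, range over all fits 0.0374 to 0.875), beside 110 of 17147 genes (0.642%) called in that fit, of which 100 (0.583%) were higher and 10 (0.0583%) lower. The log2 fold change of Col8a1 was 0.74 without aged replicate 1. Col8a2 (ENSMUSG00000056174) had 1.24, 2.27 and 3.23 CPM in the young and 10.2, 1.59 and 4.67 CPM in the aged libraries, from 60 to 339 counts per library. Aged replicate 1 stood far above the rest and aged replicate 2 lay among the young libraries. Its means of 2.25 ± 0.998 CPM (SD, n = 3) and 5.49 ± 4.36 CPM (SD, n = 3) gave a log2 fold change of 1.29 (SE 0.67, edgeR adjusted p = 0.544), which was 0.48 without aged replicate 1 and 1.73 without aged replicate 2.

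Fibroblast and macrophage markers moved with the 4 scarce genes. All 6 of 6 fibroblast markers (Pdgfra, Dcn, Lum, Dpt, Pi16 and Ly6a) had a positive log2 fold change, with a median of 1.52, 5 at an unadjusted p below 0.05 and 0 called. Their sum was 976, 1042 and 1318 CPM in young and 4728, 963 and 3784 CPM in aged replicates 1, 2 and 3, high in the same 2 aged libraries as Col4a3, Col4a4, Col8a1 and Col8a2, and none was at 0 counts. The 6 macrophage markers summed to 85.6 to 112 CPM in young and to 369, 116 and 246 CPM in aged aorta, all 6 with a positive log2 fold change and none at 0 counts. Endothelial markers summed to 337 to 487 CPM in 5 libraries and to 1597 CPM in aged replicate 3. Of these markers 7 of 7 had a positive log2 fold change, with a median of 0.75, 1 at an unadjusted p below 0.05 and 0 called. Brown adipocyte markers summed to 1775 CPM in aged replicate 2 against 124 to 575 CPM elsewhere. Markers of white adipocytes summed to 40.2 to 328 CPM, of Schwann cells to 18.6 to 38.4 CPM, of skeletal muscle to 6.55 to 21.1 CPM, with 1 of 4 at 0 counts in a library, and of mesothelium to 1.05 to 56.2 CPM. Per summed fibroblast marker, again chosen after seeing the data, the log2 difference of aged minus young turned negative for all 4. It was -0.71 for Col4a3, -0.50 for Col4a4, -0.52 for Col8a1 and -0.21 for Col8a2. The marker sum rose by more than each of these genes on the log2 scale, so the negative signs follow from the division. Each member was set only against the marker sum that moved with it, and which cells hold its RNA was not tested. Exact permutation p-values, two-sided, ran from 0.1 to 0.5, with adjusted p-values of 0.333 or more. For Col8a1 the groups did not overlap, with aged lower (exact permutation p = 0.1). The share of all genes without overlap on this scale was not computed. The part of endothelial, macrophage and adipocyte RNA in these levels was not tested.

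**Figure D3:**
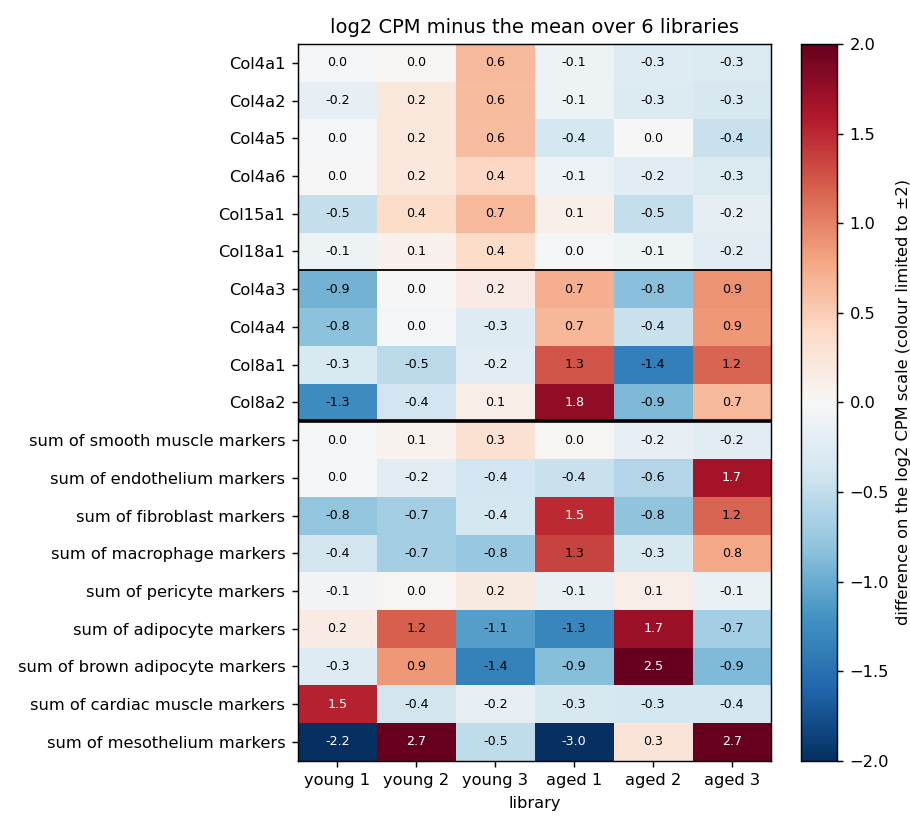
Log2 CPM minus the mean over the 6 libraries (columns) for the 10 members (upper rows) and for summed cell type markers (lower rows), with values printed in the cells and colour limited to differences of 2. The abundant genes are highest in young replicate 3, as is the smooth muscle sum, and the scarce genes are high in aged replicates 1 and 3, as is the fibroblast sum.

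No difference between ages beyond the spread of the libraries was found for partner chains, or for Col15a1 against the separate collagen gene Col18a1. The 5 ratios of FPKM were compared on the log2 scale by exact permutation tests, two-sided, with p-values adjusted over the 5. The log2 ratio of Col4a1 to Col4a2 averaged 0.08 ± 0.18 (SD, n = 3) at 6 weeks and 0.11 ± 0.02 (SD, n = 3) at 6 months (exact p = 0.8, adjusted p = 0.8), and the ratio itself lay between 0.928 and 1.19. For Col4a5 to Col4a6 it was 0.29 ± 0.12 (SD, n = 3) and 0.16 ± 0.24 (SD, n = 3) (exact p = 0.5, adjusted p = 0.75). For Col4a3 to Col4a4 it was -0.62 ± 0.29 (SD, n = 3) and -0.83 ± 0.25 (SD, n = 3) (exact p = 0.6, adjusted p = 0.75), and Col4a4 was the more abundant of that pair in every library, with ratios between 0.461 and 0.811. Col8a1 to Col8a2 varied most, with ratios between 1.21 and 3.40 (exact p = 0.5, adjusted p = 0.75). Col15a1 was always below Col18a1, at ratios between 0.264 and 0.422 (exact p = 0.5, adjusted p = 0.75). Groups of 3 do not allow an adjusted p below 0.05 here, and the ages overlapped in all 5 ratios.

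Taking the 6 collagen IV genes together, summed FPKM was 266.9, 322.4 and 448.1 in young and 232.7, 216.9 and 196.5 in aged replicates 1, 2 and 3. The aged sums all lay below the young ones on this scale, on which 20.9% of all genes were lower without overlap and 3.24% higher. As summed CPM the values were 2006, 2349 and 3193 in young and 1969, 1810 and 1766 in aged libraries, so that young replicate 1 and aged replicate 1 were nearly level. Shares of this sum, 9 of which were compared after seeing the data, gave no adjusted p below 0.9. Col4a1 and Col4a2 together made up 69.2% ± 1.75 (SD, n = 3) at 6 weeks and 68.4% ± 1.46 (SD, n = 3) at 6 months, and Col4a5 and Col4a6 29.4% ± 1.57 (SD, n = 3) and 28.5% ± 2.62 (SD, n = 3). Col4a3 and Col4a4 together held 1.15%, 1.77% and 1.24% in young and 3.47%, 1.55% and 4.43% in aged libraries, with aged replicate 2 between the young values (exact permutation test, two-sided, p = 0.2, adjusted p = 0.9 over the 9 shares).

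**Figure D4:**
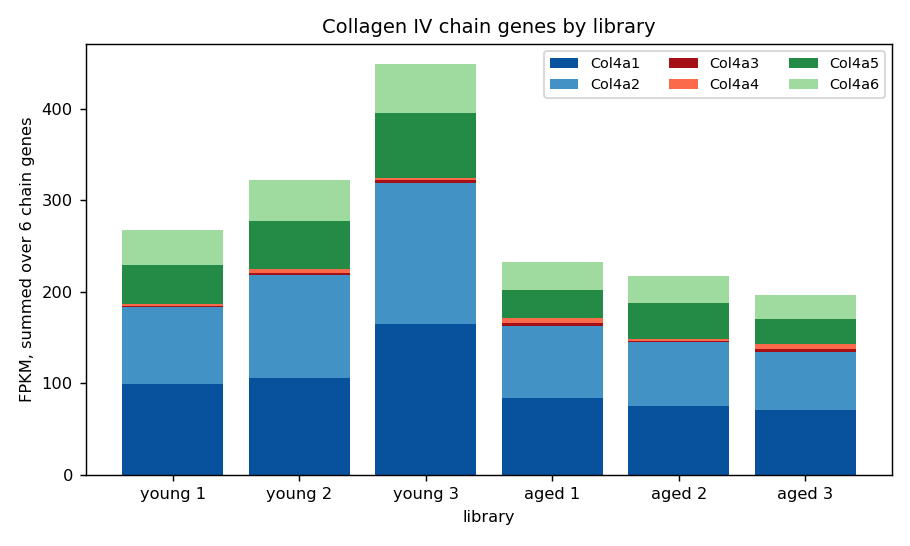
Stacked FPKM of the 6 collagen IV genes in each library, with the height of each bar the sum. The sum falls between 266.9 and 448.1 in young and between 196.5 and 232.7 in aged libraries, and Col4a1, Col4a2, Col4a5 and Col4a6 fill almost all of each bar.

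Across the 6 libraries the patterns of the collagen IV partner genes were alike, and so were those of some other members. The Pearson correlation of log2 CPM, over 6 libraries that share depth and makeup and given as a description, was 0.951 between Col4a1 and Col4a2, 0.942 between Col4a3 and Col4a4 and 0.909 between Col4a5 and Col4a6. Among the 16611 other tested genes, Col4a2 ranked 36 in likeness to Col4a1 and Col4a1 ranked 60 for Col4a2. Col4a4 ranked 57 for Col4a3 and Col4a3 108 for Col4a4, and Col4a6 ranked 253 for Col4a5 and Col4a5 279 for Col4a6. For Col8a1 and Col8a2 r was 0.845, and Col8a2 ranked 695 for Col8a1 and Col8a1 477 for Col8a2. Members outside the pair were as close or closer in places. Col8a1 and Col8a2 each had a larger r with Col4a3, at 0.851 and 0.898. Col4a2 had an r of 0.979 with Col18a1 (rank 16) and of 0.970 with Col4a6 (rank 25), and Col4a1 had an r of 0.948 with Col18a1 (rank 38). The closest patterns of all belonged to other genes. They were Ubfd1, AC175538.1 and Slc16a7 for Col4a1 (r from 0.979 to 0.983) and Mtrr, Slc35d1 and Fam220a for Col4a2 (0.991 to 0.998). For Col4a3 they were Slc50a1, Mmp27 and Uap1 (0.993 to 0.995), and for Col4a4 Eif4a1, Ggct and Tmem132e (0.987 to 0.990). For Col4a5 they were Npat, AW046200 and Ttc39b (0.992 to 0.996), and for Col4a6 Cc2d1b, Gm45114 and Atxn7l2 (0.988 to 0.995). Col8a1 was followed most closely by Nck1, by Timp2, an inhibitor of matrix metalloproteinases, and by St3gal4 (0.989 to 0.993), and Col8a2 by Clec11a, Clec5a and Gdf10 (0.995 to 0.999). Among the genes closest to Col15a1 were BC037034 and Mfhas1 (0.990 and 0.987), and Col18a1 to Sec16a, Cdc42se1 and Gm10254 (0.993 to 0.995).

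The other genes of basement membrane assembly gave 0 calls in each of the 5 lists examined. Over all genes tested, 4.82% were lower and 5.56% higher in aged aorta at an unadjusted p below 0.05. Without overlap in CPM, 8.78% were lower and 7.74% higher. The genes named below are those of smallest p in their list, so groups without overlap are more likely among them. Of 24 basement membrane partners 21 were tested, 8 higher and 13 lower in aged aorta (median log2 fold change -0.19), and 4 higher and 2 lower had an unadjusted p below 0.05. The smallest p belonged to Lamb1, a laminin chain, with 11.3 to 14.5 CPM in young and 21.8 to 33.5 CPM in aged libraries, and a log2 fold change of 1.14 (SE 0.21, edgeR adjusted p = 0.325). Agrn, the heparan sulfate proteoglycan agrin, went the other way at 149 ± 19.2 CPM (SD, n = 3) and 103 ± 15.5 CPM (SD, n = 3), with -0.54 (SE 0.18, edgeR adjusted p = 0.414). Neither gene's groups overlapped. Papln, or papilin, followed at 2.07 (SE 0.73, edgeR adjusted p = 0.421) from only 2 to 49 counts per library.

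Genes that fold, modify, secrete and crosslink the chains made up the next list, with 26 of 27 tested, 10 higher and 16 lower (median log2 fold change -0.10). An unadjusted p below 0.05 was found for 2, both lower in aged aorta. Pxdn encodes peroxidasin, which makes the sulfilimine bonds that crosslink collagen IV. It had 84.2, 96.2 and 99.0 CPM in the young and 67.4, 69.3 and 66.7 CPM in the aged libraries, without overlap and with little spread among the aged (log2 fold change -0.46, SE 0.14, edgeR adjusted p = 0.390). Klhl12, the ubiquitin ligase adaptor needed for large collagen transport vesicles, was at -0.42 (SE 0.17, edgeR adjusted p = 0.467). Plod2, a lysyl hydroxylase, was at -0.39 (SE 0.19, edgeR adjusted p = 0.524).

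All 15 receptor genes were tested, 8 higher and 7 lower, with a median log2 fold change of 0.00025 and 2 at an unadjusted p below 0.05, both lower. Itga10, a collagen-binding integrin chain, had 32.4 to 38.7 CPM in young and 15.3 to 28.8 CPM in aged aorta (log2 fold change -0.84, SE 0.26, edgeR adjusted p = 0.390). Itgb3, the beta chain of an integrin of vascular cells, was at -0.60 (SE 0.19, edgeR adjusted p = 0.400) and the hyaluronan receptor Cd44 at 0.44 (SE 0.20, edgeR adjusted p = 0.499). Among proteases and their inhibitors 16 of 19 were tested, and 14 were higher and 2 lower (median log2 fold change 0.54), 4 of them higher at an unadjusted p below 0.05. Mmp3, or stromelysin, had 24.1, 13.2 and 34.8 CPM in young and 313, 30.7 and 125 CPM in aged replicates 1, 2 and 3, so that the groups overlapped through aged replicate 2 (log2 fold change 2.70, SE 0.79, edgeR adjusted p = 0.382). Ctss, the protease cathepsin S, was at 1.58 (SE 0.49, edgeR adjusted p = 0.390) and Timp1, a metalloproteinase inhibitor, at 2.03 (SE 0.66, edgeR adjusted p = 0.400). Both were lowest among the aged in replicate 2, the library with the lowest fibroblast and macrophage sums of that age, whose part in these values was not tested.

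Of 34 other collagen genes 26 were tested, 11 higher and 15 lower with a median log2 fold change of -0.17, and 1 higher and 4 lower had an unadjusted p below 0.05. Col6a5, a collagen VI chain, had 0 counts in every young library and 29, 20 and 12 counts in aged replicates 1, 2 and 3 (edgeR adjusted p = 0.339). Col22a1, a collagen of tissue junctions, had 1.05 to 2.29 CPM in young and 0.477 to 0.708 CPM in aged libraries, at a log2 fold change of -1.53 (SE 0.48, edgeR adjusted p = 0.390). Col9a1, a cartilage collagen, had 15 to 18 counts in young and 0 to 4 in aged libraries (edgeR adjusted p = 0.443). The network collagens, at a median of -0.33, and the other collagens thus both had more members lower than higher, and the difference between the lists was not tested.

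**Figure D5:**
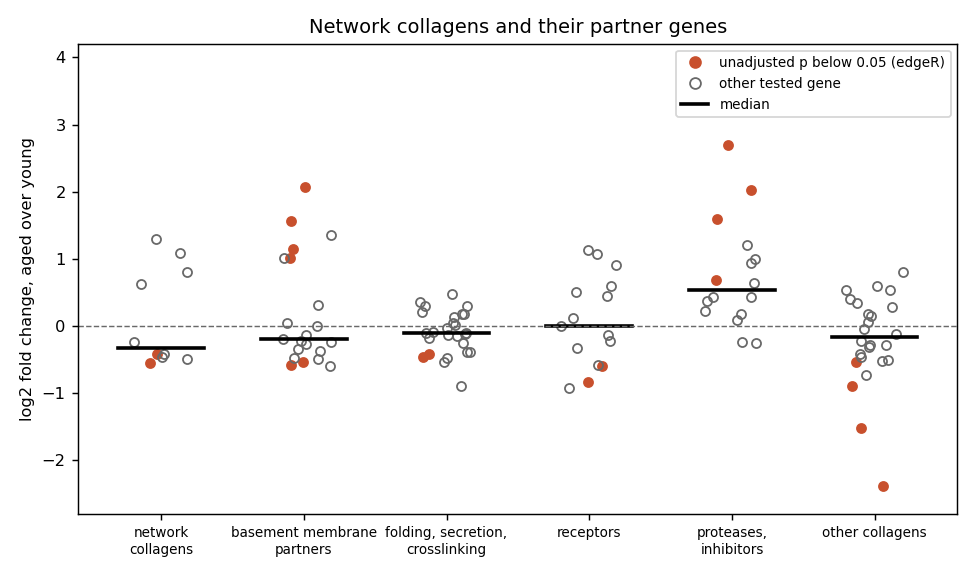
Log2 fold change of aged over young for the tested genes of each list, with 1 point per gene, filled where the unadjusted edgeR p was below 0.05, and a line at the list's median. Proteases and inhibitors have the highest median at 0.54, the network collagens the lowest at -0.33, and Col6a5, at 0 counts in young aorta, is not drawn.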

How the data were processed

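RNA-seq of aorta, with 3 libraries of young and 3 of aged mice, was analysed from tables of counts and FPKM per gene. The authors deposited the counts without normalization, and deposited FPKM scaled by gene length and library reads. The submitters' processing notes name mm10, while aligner, counting tool, annotation and strand are not given in the sources used here. Coordinates come from GENCODE M21 and promoter windows from RefSeq. The 10 members and all gene lists were chosen with earlier results of these data known, and the lists were written by hand from general knowledge.

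Counts were filtered with filterByExpr (minimum count 10, minimum total 15), normalized by TMM and fitted by quasi-likelihood in edgeR 4.0.16 (R 4.3.3) without covariates, and p-values were adjusted over 16612 genes with a threshold of 0.05. Standard errors are the log2 fold change divided by the square root of F. Ratios and shares were tested with exact permutation tests (scipy 1.17.1). Named genes are the members, the 3 genes of smallest p in each list, and the 3 of largest Pearson r per member (log2 CPM, prior count 2), of which 1 is not reported here. Mia2 was matched by identifier to an older symbol. The fit was also run on simulated counts drawn with the edgeR dispersions, without differences in sex, mitochondrial share or cell makeup between libraries. The outcome of that run is not reported here. Pearson r between libraries of 1 group ranged from 0.930 to 0.952.

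Alternatives were size factors by RLE, no filter, a minimum of 10 counts in every library, DESeq2 1.42.0, limma 3.58.1 on log2(FPKM + 1) or log2(FPKM + 0.1) and without the filter, the replicate number as a block, removal of 37 mitochondrial genes and 4 nuclear copies, and each library left out in turn.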

Additional observations from a re-analysis of the deposited data

How the results depend on the processing

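The signs of all 10 fold changes held in every fit of edgeR, DESeq2 and limma, including each fit with 1 library left out. No member was called in these fits except Col8a1 without aged replicate 2 (1.56, edgeR adjusted p = 0.0374, range over fits 0.0374 to 0.875), so the count of members called ranged from 0 to 1 over the fits with 1 library left out. The count of all genes called ranged from 0 to 110 over them, 110 without aged replicate 2, and was 338 with DESeq2. Members at an unadjusted p below 0.05 numbered 2 in edgeR, beside 1723 of 16612 genes, and 4 in DESeq2, beside 1976. Limma gave 4, beside 2667 genes on log2(FPKM + 1) and 2663 on log2(FPKM + 0.1). Without the filter, limma gave 5, beside 3032 of 27806 genes, and edgeR 3, beside 2026. There were 5 without young replicate 1, beside 1952 of 17259 genes, and 5 without aged replicate 2, beside 2359 of 17147. Without aged replicate 1 there was 1, beside 1443 of 17274. Without young replicate 2, young replicate 3 or aged replicate 3 there were 0, beside 1277 of 17295, 1061 of 17306 and 1244 of 17445. On log2(FPKM + 1) the median of all genes was -0.12, and the abundant members lay between -0.74 (Col4a5) and -0.44 (Col18a1), while the scarce ones were smaller than in edgeR, at 0.22 for Col4a3, 0.40 for Col4a4 and 0.37 for both Col8a1 and Col8a2. The cause of these changes was not tested.

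With 1 library left out, the difference in log2 FPKM ratio between ages ranged from -0.059 (without young replicate 2) to 0.12 for Col4a1 to Col4a2, from -0.65 to 0.083 (without young replicate 1) for Col8a1 to Col8a2, and from -0.36 to 0.012 (without aged replicate 2) for Col15a1 to Col18a1. It ranged from -0.32 to -0.045 for Col4a3 to Col4a4 and from -0.26 to -0.040 for Col4a5 to Col4a6. Differences in percent of collagen IV FPKM, chosen after seeing the data, ranged from -1.52 to 0.820 for Col4a1, which was 0.820, 0.586 and 0.318 without young replicate 1, young replicate 3 and aged replicate 2. They ranged from -0.624 to 0.487 for Col4a6 and from -1.60 to 0.122 for Col4a1 and Col4a2 together, with the values of -0.624 and 0.122 without young replicate 3. Per summed marker, also chosen after seeing the data, the sign turned for Col18a1 (0.014, smooth muscle), Col4a3 (-0.71), Col4a4 (-0.50), Col8a1 (-0.52) and Col8a2 (-0.21, all fibroblast). In each case the marker sum had moved further than the gene, so the sign follows from the division. The cause of the other shifts was not tested.

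The replicate number does not pair the mice by the labels, and the deviations of same-numbered libraries correlated at 0.079, 0.117 and 0.096, each young library with its own number best. A replicate block in the edgeR fit gave 0 genes and 0 members called. At an unadjusted p below 0.05 there were 0 members, beside 1782 of 16612 genes. Depth limits Col8a2 most, at 60 counts in 2 libraries.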
